A study of Mus musculus with 10 samples.

Results

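Barrier lipid and transglutaminase genes were described in the skin of mouse embryos by single-cell RNA sequencing. The set comprised 9 genes chosen by symbol, out of the 27040 genes listed in every library, and all 9 were present. They were Elovl4, Cers3, Abca12, Alox12b, Aloxe3, Tgm1, Tgm3, Fabp5 and Dgat2. Dorsal skin of whole embryos was dissociated, and unique molecular identifiers (UMIs) were counted per gene and cell in 10 libraries. The E15.5 and E16.5 stages were each covered by 2 libraries from control embryos and 2 from MOF cKO embryos. A single control and a single QPC cKO library came from E17.5. MOF cKO embryos (MOFfl/fl/K14Cre) carried floxed Kat8 alleles, the gene of the histone acetyltransferase MOF, and QPC cKO embryos (QPCfl/fl/K14Cre) floxed alleles of Uqcrq, a subunit of respiratory complex III. In both lines the Krt14-Cre driver acts in epithelial cells, including the hair follicle, and not in dermis. All mice were of a mixed C57Bl/6J and CD-1 background. The study describes the E15.5 MOF cKO embryo with replicate number 6 as mosaic for the deletion.

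The outermost layer of the epidermis holds water because dead, flattened cells are embedded in stacked lipid sheets. Elovl4 extends fatty acids to very long chains and Cers3 joins them to sphingoid bases to make the ceramides of these sheets. Abca12 loads lipids into lamellar granules, which granular cells empty into the space between cells. The lipoxygenases Alox12b and Aloxe3 oxidise the linoleate of acylceramides in sequence, a step needed to attach ceramides to the cornified envelope. The transglutaminases Tgm1 and Tgm3 cross-link the proteins of that envelope. Fabp5 is the epidermal fatty acid binding protein, and Dgat2 makes triglycerides, a source of linoleate for acylceramides.

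All members are protein-coding, and positions are those of GENCODE on GRCm38. Elovl4 spans chr9:83778692-83806277 on the minus strand, Cers3 chr7:66743504-66823691 on the plus strand and Abca12 chr1:71242276-71414910 on the minus strand. Alox12b (chr11:69156989-69169792) and Aloxe3 (chr11:69125896-69149115) are neighbours on the plus strand with 7873 bases between them. Tgm1 lies at chr14:55700009-55713926 on the minus strand and Tgm3 at chr2:130012349-130050399 on the plus strand. Fabp5 lies at chr3:10012548-10016607 on the plus strand and Dgat2 at chr7:99153658-99182719 on the minus strand. Tgm1 overlaps Gm49067 and Tgm3 overlaps Mir6339, each on the opposite strand. A search of annotated transcripts found near-identical copies (95% or more identity over 200 bases or more) of Fabp5 alone, in Gm14328 and Gm6166. Neither copy was among the counted genes.

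The promoters of 3 members are shown because Tgm3 and Elovl4 had the largest fitted rise between basal and suprabasal cells and Cers3 the smallest. That order is used for this choice only. Each is the 250 bases before the RefSeq transcription start on GRCm38.p6, read in the direction of the gene, at chr2:130012090-130012339 on the plus strand, chr9:83806306-83806555 on the minus strand and chr7:66743254-66743503 on the plus strand. Capitals mark matches, on either strand, to the KLF motif GGGTG or to the C/EBP motif TTGCNNAA.
Tgm3: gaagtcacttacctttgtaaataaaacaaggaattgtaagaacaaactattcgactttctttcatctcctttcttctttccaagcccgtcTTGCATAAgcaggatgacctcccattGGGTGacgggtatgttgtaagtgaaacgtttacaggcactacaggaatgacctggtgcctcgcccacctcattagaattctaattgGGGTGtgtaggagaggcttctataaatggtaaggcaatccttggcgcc
Elovl4: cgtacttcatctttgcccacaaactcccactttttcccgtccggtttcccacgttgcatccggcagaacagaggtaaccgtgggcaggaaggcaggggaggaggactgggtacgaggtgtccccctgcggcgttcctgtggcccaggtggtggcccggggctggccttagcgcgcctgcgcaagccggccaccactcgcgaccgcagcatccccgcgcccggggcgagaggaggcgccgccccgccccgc
Cers3: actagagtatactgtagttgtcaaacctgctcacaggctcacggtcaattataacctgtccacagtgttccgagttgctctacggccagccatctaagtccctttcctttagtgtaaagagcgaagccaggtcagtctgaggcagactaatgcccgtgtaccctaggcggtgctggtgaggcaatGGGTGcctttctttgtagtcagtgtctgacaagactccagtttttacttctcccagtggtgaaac
RefSeq promoters were found for 6 of the 9 members, with 2 starts for Tgm1. The KLF letters occurred in 5 of these 7 windows, and 52.1% of the 32536 promoters of this length held them. The AP-1 letters TGANTCA and the GRHL letters AACNGGTT occurred in none of the 7, against 6.73% and 1.79% of all promoters. The C/EBP letters occurred in Tgm3 alone, against 9.57% of all promoters. The KLF and C/EBP matches in Tgm3 do not overlap, with KLF letters 134 and 48 bases and C/EBP letters 160 bases before the start. These are letter matches only.

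The limits on cells were more than 1000 and fewer than 6000 genes detected, with mitochondrial UMIs below 10%. A kept cell was called basal with at least 10 UMIs of Krt5 and Krt14 and under 10 of Krt1 and Krt10, and suprabasal with at least 20 UMIs of Krt1 and Krt10. UMIs were summed over the cells of a class in each library, and levels are counts per 1000000 UMIs of that sum (CPM). Libraries held 13609345 to 203392303 UMIs and 716 to 10653 kept cells, and each pair of libraries shared at most 36 cell barcodes. Summed suprabasal markers, which include the genes of the gate, were higher in the suprabasal than in the basal sum of every library. Several libraries stood apart. The E16.5 MOF cKO sums rested on 21 and 22 basal and on 9 and 13 suprabasal cells, against 239 and 464 basal and 31 and 66 suprabasal cells in their controls. In the E17.5 control, 74.7% of the 2807 basal cells held at least 10 collagen UMIs, against 22.4% of 1066 in QPC cKO. No E17.5 barcode held 20 UMIs of loricrin (Lor), the main envelope protein of granular cells, and the limit of 6000 genes removed 202 of 528 control and 171 of 417 QPC cKO suprabasal barcodes there. Kat8 in basal cells was 16.4 and 14.9 CPM in E16.5 controls and 8.31 and 4.51 in MOF cKO, and Uqcrq was 103 in the E17.5 control and 45.7 in QPC cKO. Chemistry and stage changed together, so levels were not compared between stages.

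In control skin, all 9 members were higher in suprabasal than in basal cells. The rise ran from 1.51 on the log2 scale for Cers3 to 7.40 for Tgm3, with a median of 4.80 over the members and -0.07 over all genes tested. The fit took the 5 control libraries, with the library as a block, and used the edgeR quasi-likelihood test. Benjamini-Hochberg adjustment was over 12753 genes, of which 14.9% were called higher. Abca12, Aloxe3 and Tgm3 passed the filter on low counts through their suprabasal values alone, so the count of 9 is a description.

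**Figure D1:**
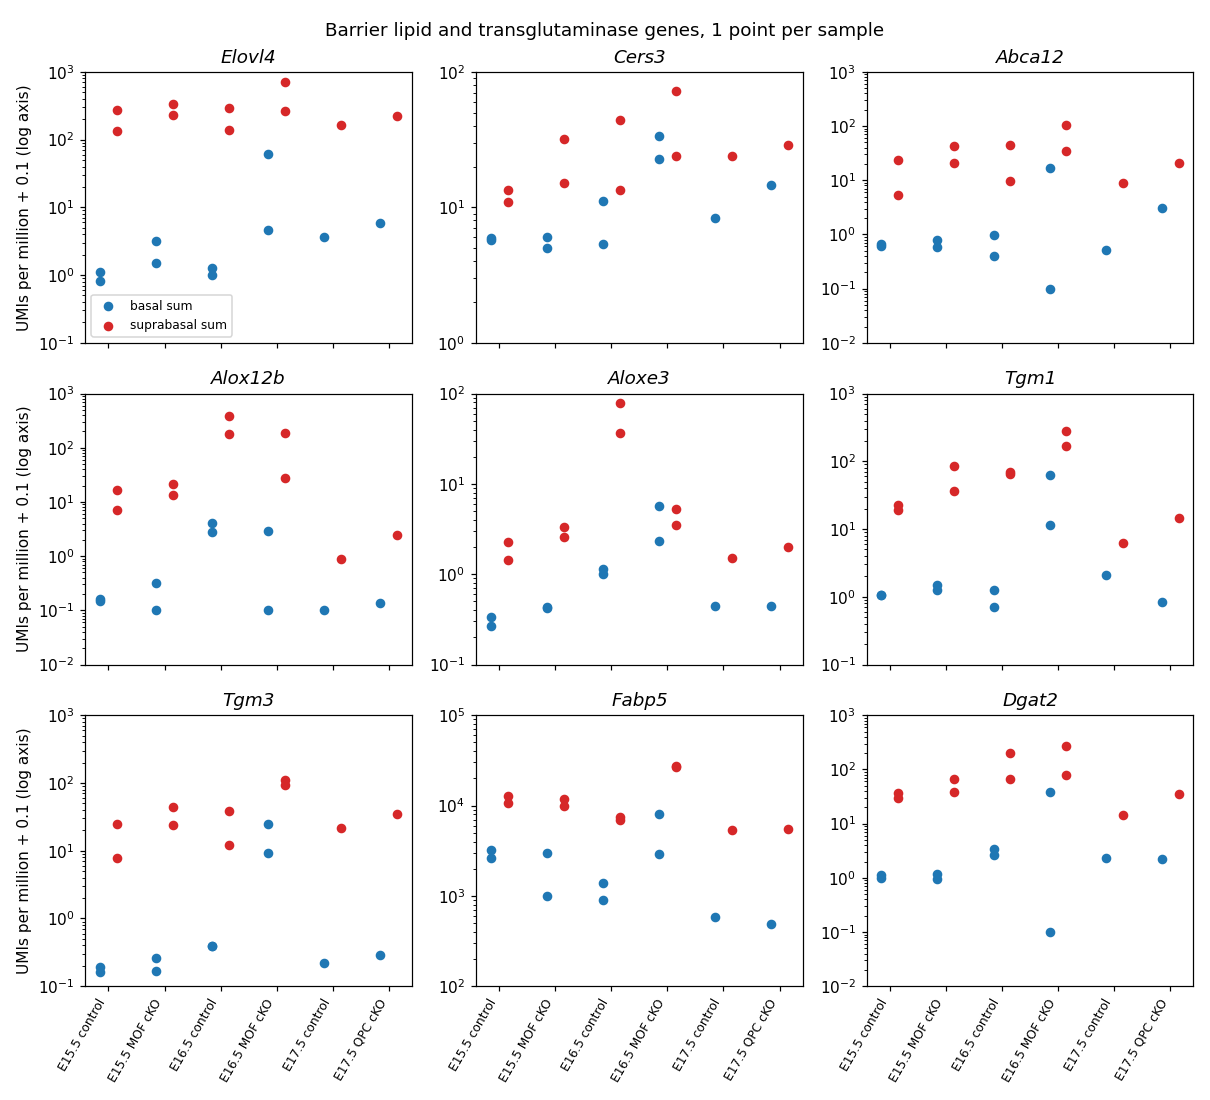
Levels of the 9 genes in CPM plus 0.1 on a log axis, with 1 point per library, basal sums in blue and suprabasal sums in red, by stage and genotype. In every control library the suprabasal point lies above the basal point, and in E16.5 MOF cKO the basal points of Tgm1 and Tgm3 lie above those of the controls.

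Among the enzymes of ceramide synthesis, Elovl4 was at 132 and 269 CPM in suprabasal cells of the E15.5 controls, at 139 and 293 at E16.5 and at 162 at E17.5. In the basal cells of the same libraries it was at 0.715 and 1.01, at 0.894 and 1.18, and at 3.49. Suprabasal and basal values did not overlap, and Elovl4 rose by 7.25 ± 0.43 (log2, approximate SE, edgeR adjusted p = 4.88e-05). Cers3 had the least contrast, with 10.9 and 13.3, 44.2 and 13.3, and 23.7 CPM in suprabasal cells of the 5 controls in the same order. Its basal levels were 5.87 and 5.67, 11.02 and 5.31, and 8.22, so that Cers3 RNA was counted in both layers. The lowest suprabasal value, 10.9, lay just below the highest basal value, although every library had more in its own suprabasal cells (1.51 ± 0.21, edgeR adjusted p = 0.00212).

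Abca12, the lamellar granule transporter, was at 5.29 and 23.4, 44.2 and 9.68, and 8.83 CPM in suprabasal cells of these controls, and between 0.295 and 0.894 in basal cells. It rose by 4.80 ± 0.40 (edgeR adjusted p = 2.59e-04). Both lipoxygenases were counted in the suprabasal cells of every control. Alox12b was at 16.2 and 7.14 CPM in the E15.5 controls, at 378 and 178 at E16.5 and at 0.802 at E17.5. Aloxe3 was at 1.32 and 2.18, at 78.4 and 36.3, and at 1.40. In basal cells neither passed 3.98 CPM in any control. Their contrasts were 6.71 ± 0.38 for Alox12b (edgeR adjusted p = 4.25e-05) and 4.03 ± 0.70 for Aloxe3 (edgeR adjusted p = 0.00495).

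Tgm1, the membrane-bound transglutaminase, was at 19.2 and 22.5, 68.3 and 65.4, and 6.22 CPM in suprabasal cells of the 5 controls, against 0.596 to 2.02 in basal cells (4.42 ± 0.64, edgeR adjusted p = 0.00235). Tgm3 was at 7.60 and 24.6, 12.1 and 38.7, and 21.9, against 0.0595 to 0.298 (7.40 ± 0.42, edgeR adjusted p = 4.25e-05). Dgat2 was at 30.1 and 37.3, 66.3 and 200, and 14.0, against 0.882 to 3.28 (4.82 ± 0.49, edgeR adjusted p = 5.51e-04). Fabp5 was abundant in both layers. It stood at 10689 and 12730, 6985 and 7539, and 5406 CPM in suprabasal cells and at 2645 and 3213, 903 and 1400, and 581 in basal cells (2.66 ± 0.23, edgeR adjusted p = 2.75e-04).

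The share of cells with a UMI was compared after thinning each cell to 5000 UMIs, with dermal cells of the same libraries as the reference. Shallower cells were left out, so that 26 to 349 of the 31 to 361 suprabasal cells of each control remained. Fabp5 was found in at least 97.1% of thinned suprabasal cells of each library, but also in 75.5% to 92.3% of dermal cells. Elovl4 was found in 37.4% to 56.7% of thinned suprabasal cells of the controls, in 0.227% to 1.79% of basal cells and in 2.01% to 2.51% of dermal cells. In each control the thinned basal share of Elovl4 was below the dermal share. Whether these low counts are background or expression was not tested. Before thinning the shares were 58.1% to 76.7%, 1.17% to 6.52% and 3.66% to 6.73%. Median depth was 11541.5 to 28038 UMIs in suprabasal, 12536.5 to 23870 in basal and 9145 to 17542 in dermal cells of these controls. In level, dermal cells of the controls held Tgm3 at 0.0178 to 0.258 CPM, near its basal level, and Cers3 at 0.262 to 0.931 CPM, below each basal value. Dermal levels were above basal levels in every control for Elovl4 (3.80 to 5.17 CPM) and Dgat2 (3.29 to 7.27 CPM). Dermal Tgm1 (0.393 to 2.13 CPM) and Aloxe3 (0.140 to 0.466 CPM) overlapped with their basal levels. Dermal Alox12b was at 0.124 and 0.0839 CPM in the E15.5 controls and at 0 at E17.5, against 0.0477, 0.0595 and 0 in basal cells. In the E16.5 controls it was at 1.24 and 0.786, below the basal 2.68 and 3.98. The fitted rises of Elovl4, Tgm3, Dgat2, Tgm1, Aloxe3 and, outside E16.5, Alox12b are thus set against basal counts at or near the dermal level. Their exact size and order are not read further.

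The other genes of the pathway were counted in fixed lists. Of 28 genes of ceramide and acylceramide synthesis, 26 were tested, 16 were higher and 3 lower in suprabasal cells. Those with the largest rise were Acer1, a ceramidase (8.15), Cyp4f39, which hydroxylates very long fatty acids (7.91), and Sdr9c7, which acts after the lipoxygenases (7.37). Of 22 genes of cholesterol synthesis and sulfation, 21 were tested and 19 were higher, led by the sulfotransferase Sult2b1 (5.42), while the synthesis enzymes Pmvk and Mvk rose by 1.63 and 1.57. Of 19 lamellar granule and lipid processing genes, 14 were tested, 10 were higher and 1 lower, among them the lipases Lipk (6.56), Pla2g2f (5.74) and Lipm (5.64). Of 18 genes of fatty acid and triglyceride synthesis, 16 were tested, 5 were higher and 2 lower, with the largest rise in Acsl1 (3.23). Of 22 envelope proteins joined by transglutaminases, 18 were tested and 16 were higher. Of the 6 other transglutaminases, 3 were tested, none was higher, and Tgm2 (-4.00) and F13a1 (-3.75) were lower. In the list of 12 other lipoxygenases, fatty acid binding proteins and related genes, Alox12 (5.10) and Alox12e (1.95) were higher and Fabp4 (-3.27) lower. The basal sums include collagen-holding cells, so the lower values of Tgm2, F13a1 and Fabp4 are not read as differences between epidermal layers. Among 19 regulators, 18 were tested and 9 were higher, led by Grhl1 (4.43), Ovol1 (3.71) and Grhl3 (3.20). Every gene named here was called by edgeR at an adjusted p of 0.0426 or less. All 9 members were called with each alternative tried and with each library left out.

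Within the suprabasal cells, 5 members were higher in loricrin-high cells, those with at least 20 Lor UMIs, than in the other suprabasal cells. They were Alox12b, Aloxe3, Dgat2, Tgm1 and Elovl4. Alox12b and Aloxe3 passed the filter on low counts through their loricrin-high values alone, so the count of 5 is a description. The fit took the 3 controls with at least 10 cells in both classes, E15.5 replicates 2 and 3 and E16.5 replicate 2. These held 11, 17 and 16 loricrin-high cells, and edgeR called 9.89% of 5885 genes higher. The median change was 2.20 over the members and -0.23 over all genes tested.

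**Figure D2:**
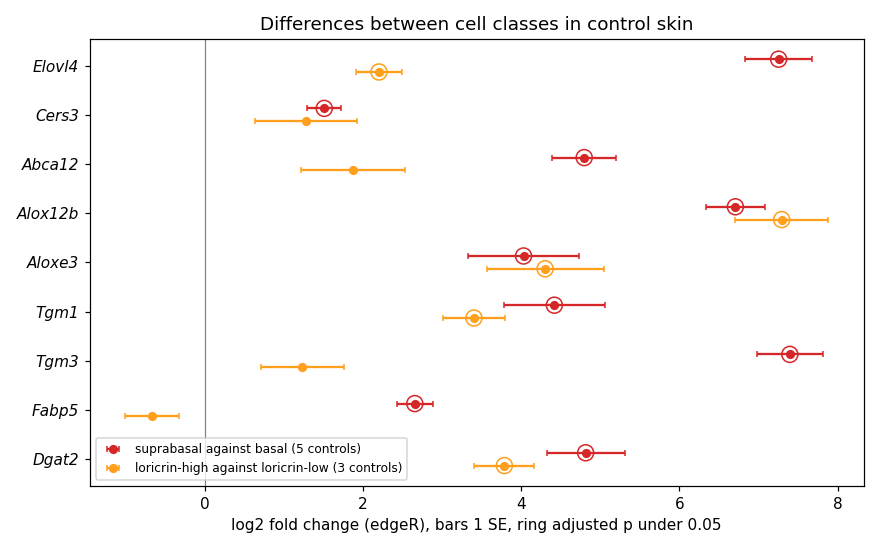
Log2 fold changes (horizontal axis) of the 9 genes between suprabasal and basal cells in 5 controls (red) and between loricrin-high and loricrin-low suprabasal cells in 3 controls (orange), with bars of 1 SE and rings where the edgeR adjusted p was under 0.05. All 9 red points are ringed, and 5 orange points, with Alox12b the farthest to the right at 7.29.

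Alox12b was at 416, 150 and 769 CPM in loricrin-high cells of those 3 controls and at 0, 1.26 and 15.4 in loricrin-low cells (7.29 ± 0.59, edgeR adjusted p = 2.26e-07). Aloxe3 was at 25.5, 15.3 and 140, from 3, 5 and 25 UMIs, against 0.344, 1.64 and 7.72 (4.30 ± 0.74, edgeR adjusted p = 7.25e-04). Dgat2 was at 391, 202 and 696 against 15.48, 30.5 and 63.3 (3.79 ± 0.38, edgeR adjusted p = 2.63e-06). For these 3 genes every loricrin-high value lay above every loricrin-low value. Tgm1 was at 221, 140 and 174 against 11.01, 17.6 and 35.5 (3.40 ± 0.40, edgeR adjusted p = 1.45e-05), and Elovl4 at 493, 950 and 691 against 118, 241 and 184 (2.20 ± 0.29, edgeR adjusted p = 6.03e-05). They too did not overlap.

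The other 4 members did not pass. Abca12 (1.88 ± 0.65, edgeR adjusted p = 0.0644) was at 0, 76.4 and 28.1 in loricrin-high cells against 5.50, 21.2 and 4.63. Cers3 (1.28 ± 0.65, edgeR adjusted p = 0.198) and Tgm3 (1.24 ± 0.52, edgeR adjusted p = 0.125) missed the threshold too. Fabp5 had the other sign (-0.67 ± 0.34, edgeR adjusted p = 0.204), at 4207, 10476 and 4233 in loricrin-high cells against 10952, 12823 and 8448. Each of its 3 loricrin-high values lay below the loricrin-low value of its own library. Without E15.5 control 3, Fabp5 was called lower and 5 members higher, with 18.6% of 4837 genes called. Without E15.5 control 2 Aloxe3 was not called and 4 members were, with 305 of 5085 genes. Without E16.5 control 2 Tgm3 was also called and 6 members were, with 6.92% of 8783 genes.

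The share of a transcript held by loricrin-high cells is given as a description for the 4 controls that had such cells. These cells were 7.48% and 4.71% of suprabasal cells in the E15.5 controls and 22.6% and 24.2% in the E16.5 controls, and held 3.89%, 3.96%, 23.2% and 21.6% of their UMIs. They held 49 of 49, 49 of 59, 186 of 188 and 137 of 147 Alox12b UMIs. For Elovl4 they held 58 of 400, 311 of 2223, 16 of 69 and 123 of 242, which in E16.5 control 1, not in the fit, was 23.2%, the same as their share of all UMIs. For Tgm3 they held 3 of 23, 23 of 203, 0 of 6 and 5 of 32. At least 83.1% of Alox12b UMIs were thus in loricrin-high cells, while for Tgm3 the percentages were 13.04, 11.3, 0 and 15.6, above the share of all UMIs in both E15.5 controls and below it in both E16.5 controls.

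**Figure D3:**
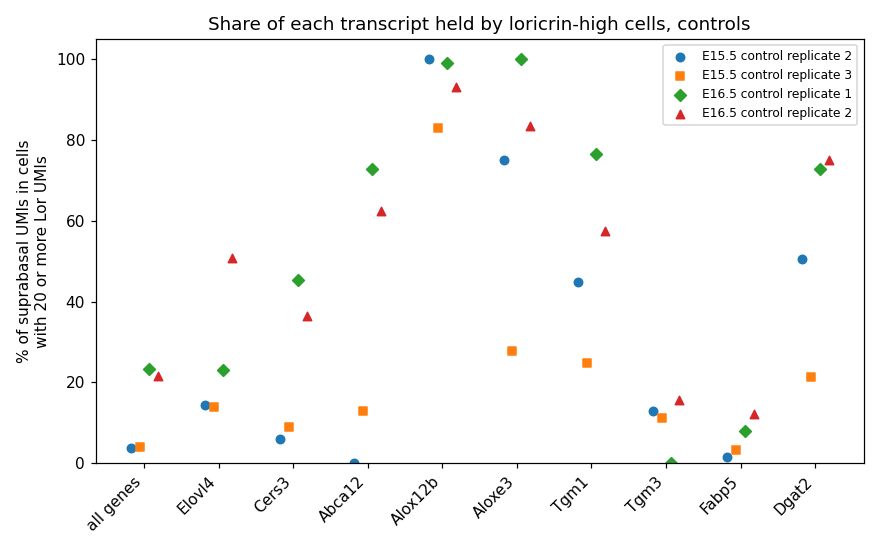
Percent of the suprabasal UMIs of each gene (vertical axis) that came from cells with 20 or more Lor UMIs, with 1 symbol per control library, and the same for all genes together at the left. Alox12b lies between 83.1% and 100% in the 4 libraries, and Tgm3 at 15.6% or less.

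Loricrin-high cells were fewer in genes and mitochondrial UMIs than loricrin-low cells. Their median gene number was 1499 to 3248 against 3037.5 to 4242 in the same 4 controls, and 72.7%, 41.2%, 85.7% and 81.3% of them had under 0.5% mitochondrial UMIs, against 0.735%, 2.91%, 16.7% and 36.0% of loricrin-low cells. The part of these properties in the differences between members was not tested. Of the 21 tested genes of ceramide and acylceramide synthesis, 12 were higher in loricrin-high cells and none lower, with Sdr9c7 (6.52), Acsbg1 (4.93) and the elongase Elovl1 (4.37) leading. Of 9 tested lamellar granule and lipid processing genes, 7 were higher, led by the proteases Klk7 (7.41) and Klk5 (6.57) and by Lipk (5.85). Cholesterol genes gave 5 of 20 (Sult2b1 3.03, Mvd 2.33, Pmvk 2.33), fatty acid and triglyceride genes 2 of 6 (Scd2 1.26, Acsl1 1.19), and the envelope proteins, whose list holds Lor itself, 12 of 14. Of 3 genes tested from the list of other lipoxygenases, fatty acid binding proteins and related genes, Crabp2 (6.13) was higher. Hpgds, a prostaglandin synthase in that list, was lower (-2.34). Among 13 regulators tested, 4 were higher, with Nr1h2 (2.09) and Cebpb (1.55) leading.

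At E15.5 no member passed the test between MOF cKO and control. In basal cells edgeR called 0% of 14364 genes. Of these, 1309 had an unadjusted p under 0.05, 1 member among them, and DESeq2 called 119, no member among them. In suprabasal cells edgeR called 0% of 10819 genes. Of these, 836 had an unadjusted p under 0.05, and DESeq2 called 49, Tgm1 among them. All 9 members had a positive fold change in suprabasal cells, with a median of 0.80 against -0.01 over all genes tested. Both MOF cKO samples lay above both controls for 4 of the 9 (Cers3, Aloxe3, Tgm1 and Dgat2), as they did for 16.7% of the genes tested. Aloxe3 passed the filter on low counts through its MOF cKO values alone, so nothing is read from this count. Loricrin-high cells held 8.11% and 5.43% of the suprabasal UMIs in MOF cKO and 3.89% and 3.96% in the controls. Among cells under 20 Lor UMIs, the changes of the members tested ran from 0.0069 for Fabp5 to 1.87 for Tgm1, and none was called.

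Tgm1 was at 86.2 and 37.0 CPM in the E15.5 MOF cKO samples 5 and 6 and at 19.2 and 22.5 in the controls, without overlap (1.72 ± 0.49, edgeR adjusted p = 0.631). Cers3 was at 32.0 and 14.999 against 10.9 and 13.3 (1.09 ± 0.48, edgeR adjusted p = 0.631), and Dgat2 at 65.8 and 38.7 against 30.1 and 37.3 (0.77 ± 0.37, edgeR adjusted p = 0.647). The higher value was that of MOF cKO 5 in each case. The mosaic MOF cKO 6 lay near the controls for Cers3 and Dgat2. Tgm3 (44.0 and 24.1 against 7.60 and 24.6) and Abca12 (42.4 and 20.7 against 5.29 and 23.4) overlapped with the controls through MOF cKO 6. Elovl4 (334 and 232 against 132 and 269) and Alox12b (21.8 and 13.3 against 16.2 and 7.14) overlapped too. Aloxe3 was at 2.50 and 3.26 against 1.32 and 2.18, from 11 and 15 against 4 and 18 UMIs. Fabp5 (11928 and 9840 against 10689 and 12730) differed by less than its SE (0.02 ± 0.36).

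Without MOF cKO 6 edgeR called 4 members higher in E15.5 suprabasal cells, Tgm1 (2.28, adjusted p = 2.06e-04), Cers3 (1.62, 0.00361), Dgat2 (1.20, 0.00603) and Tgm3 (1.57, 0.0475), and 1762 of 11374 genes in all. That fit compares 1 MOF cKO sample with 2 controls and takes the spread from the controls. Without a filter on low counts Tgm1, Tgm3, Cers3 and Abca12 were called, with 2.91% of 18052 genes.

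In E15.5 basal cells 7 members passed the filter on low counts. Both MOF cKO samples lay above both controls for 3 of these 7 (Elovl4, Aloxe3 and Tgm1), against 17.7% of the genes tested. Aloxe3 passed the filter through its MOF cKO values alone, so nothing is read from this count. Elovl4 was at 3.11 and 1.41 CPM in MOF cKO 5 and 6 and at 0.715 and 1.01 in the controls (1.56 ± 0.59, edgeR adjusted p = 0.508). Every one of these values lay below the dermal level of its own library, 4.15 and 4.37 in MOF cKO, and the change was 0.64 without hair follicle marker cells. Krt17 is among those markers. The paper reads it as hair germ in E15.5 controls but as stress response in MOF cKO. Removing these cells may thus take out different cells by genotype. Fabp5 was at 1010 and 2997 against 2645 and 3213 (-0.47 ± 0.44, edgeR adjusted p = 0.617), with the low value in MOF cKO 5. Cers3 was at 5.89 and 4.92 against 5.87 and 5.67, and Tgm1 at 1.39 and 1.17 against 0.954 and 0.952. Abca12, Aloxe3 and Dgat2 lay between 0.167 and 1.07 CPM in all 4 libraries, and Alox12b and Tgm3 had at most 4 UMIs in each. Without MOF cKO 6, with 1 MOF cKO sample left, Elovl4 changed by 2.13, at levels below the dermal ones, and Fabp5 by -1.24. The difference of the MOF cKO effect between suprabasal and basal cells at E15.5 was called for none of the 9 members and for 0% of 13415 genes. At an unadjusted p under 0.05 there were 677 genes, 3 members among them. Fabp5 was called without MOF cKO 6 (1.47, edgeR adjusted p = 0.00270) and without control 3 (0.56, edgeR adjusted p = 0.04998), and had the other sign without MOF cKO 5 (-0.35).

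At E16.5, Tgm1 was higher in suprabasal cells of MOF cKO than of control, and no other member passed. edgeR called 4.03% of 4266 genes, 143 higher and 29 lower, and 1 of the 9 members. The median change was 1.70 over the members and -0.05 over all genes tested. Both MOF cKO samples lay above both controls for Fabp5, Tgm1 and Tgm3, as for 16.1% of the genes tested. They lay below both controls for Aloxe3, as for 49.6% of the genes tested. Aloxe3 passed the filter on low counts through its control values alone, so its place below them is not read.

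Tgm1 was at 280 and 168 CPM in MOF cKO and at 68.3 and 65.4 in the controls. It rose by 2.26 ± 0.45 (edgeR adjusted p = 0.0417). The call was lost without MOF cKO 1 (1.74, adjusted p = 0.155), without control 2 (2.27, adjusted p = 0.0535), without cells under 0.5% mitochondrial UMIs (2.17, adjusted p = 0.0563), with a gate on the share of UMIs (2.05, adjusted p = 0.0578) with 1 fit of both stages (2.20, adjusted p = 0.0572), in which Fabp5 was called, and with the replicate block (2.19, adjusted p = 0.0862). Without control 2, Elovl4 and Tgm3 were called higher and Aloxe3 lower, with 5.90% of 4185 genes called. Without control 1, Tgm1 and Abca12 were called, with 5.88% of 3875 genes. Without collagen-holding cells, which left 4 and 7 MOF cKO and 19 and 55 control cells, edgeR called 20.9% of 1739 genes. Fabp5, Elovl4, Tgm1, Tgm3 and Dgat2 were called higher. Tgm1 and Tgm3 passed the filter on low counts there through their MOF cKO values alone.

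Tgm3 was at 93.4 and 110 in MOF cKO and at 12.1 and 38.7 in the controls (2.38 ± 0.58, edgeR adjusted p = 0.0638). Fabp5 was at 27296 and 26589 against 6985 and 7539 (2.40 ± 0.60, edgeR adjusted p = 0.0704). Neither overlapped and neither passed, and DESeq2 called both (adjusted p = 0.0355 and 7.70e-05). Elovl4 was at 711 and 267 against 139 and 293 (1.70 ± 0.65, edgeR adjusted p = 0.163), Abca12 at 104 and 34.3 against 44.2 and 9.68 (1.93 ± 0.82, edgeR adjusted p = 0.194), Cers3 at 72.7 and 24.0 against 44.2 and 13.3 (1.27 ± 0.77, edgeR adjusted p = 0.340) and Dgat2 at 270 and 78.8 against 66.3 and 200 (0.87 ± 0.76, edgeR adjusted p = 0.495). In these 4 genes the groups overlapped, and MOF cKO 1 held the highest value.

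Neither lipoxygenase passed. Aloxe3 was at 5.19 and 3.43 CPM in MOF cKO, 1 UMI in each library, and at 78.4 and 36.3 in the controls, 39 and 30 UMIs, without overlap (-3.20 ± 0.83, edgeR adjusted p = 0.0763). Scaling by library size alone moved the median of all genes from -0.05 to -0.58, and under it Aloxe3 was called lower (-3.72, adjusted p = 0.0381). Without collagen-holding cells the Aloxe3 groups overlapped, at 0 and 16.1 CPM in MOF cKO and 5.04 and 40.2 in the controls. Alox12b was at 187 and 27.4 against 378 and 178, with overlap (-0.83 ± 0.82, edgeR adjusted p = 0.543), and its sign turned without collagen-holding cells (0.89) and without MOF cKO 2 (0.14).

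**Figure D4:**
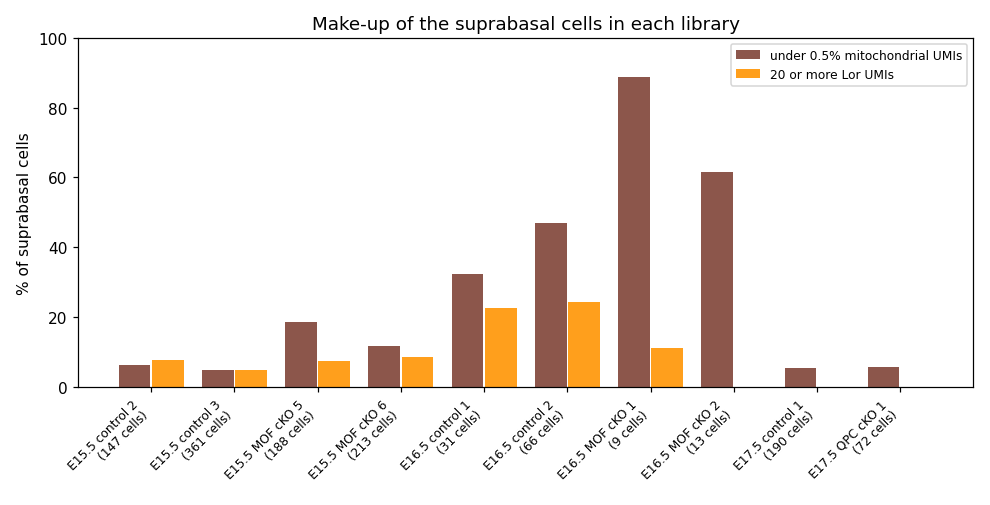
Percent of suprabasal cells (vertical axis) with under 0.5% mitochondrial UMIs (brown) and with 20 or more Lor UMIs (orange) in each library, with the number of suprabasal cells in brackets. The E16.5 MOF cKO libraries have the highest brown bars, 88.9% and 61.5%, and their orange bars, 11.1% and 0%, lie below those of the E16.5 controls, 22.6% and 24.2%.

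The make-up of the E16.5 suprabasal cells moved with these values. Loricrin-high cells were 1 of 9 and 0 of 13 in MOF cKO, against 7 of 31 and 16 of 66 in the controls, and Lor itself was at 145 and 51.4 CPM against 39484 and 24479. Median mitochondrial UMIs were 0.0811% and 0.0693% in MOF cKO and 3.44% and 2.02% in the controls. Cells with at least 3 UMIs of the hair follicle markers were 88.9% and 92.3% against 35.5% and 24.2%, and the stress keratin Krt17 alone gave 7320 and 4776 of their summed 7325 and 4841 CPM in MOF cKO. Summed periderm markers were 28220 and 17442 CPM in MOF cKO against 2458 and 2928. Krt6a, also a keratin of stressed epidermis, was at 16508 and 10199 CPM in MOF cKO against 6.03 and 4.84, and Sfn at 11711 and 7242 against 2452 and 2917. The other 4 of the 6 genes, Krt4, Krt8, Krt18 and Krt19, were at 0 in both MOF cKO samples and in control 1, and at 0 to 2.42 CPM in control 2. Collagen-holding cells were 55.6% and 46.2% against 38.7% and 16.7%. The part of these in the results was not tested beyond the fits given here.

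A fit of the cells with under 20 Lor UMIs does not compare like cells, since Lor itself had lower values in MOF cKO. The limit removed the 7 and 16 loricrin-high cells of the controls but 1 and 0 cells of MOF cKO, and control cells of that class held more Tgm1 and Dgat2. Tgm1 in the controls moved from 68.3 and 65.4 to 20.9 and 35.5 CPM, while in MOF cKO it was at 286 and 168. In this fit edgeR called 10.3% of 3892 genes, against 4.03% over all suprabasal cells. It called Tgm1 (3.55 ± 0.53, adjusted p = 0.00524), Abca12 (3.44 ± 0.77, adjusted p = 0.0228), Tgm3 (2.27 ± 0.52, adjusted p = 0.0247) and Elovl4 (2.25 ± 0.57, adjusted p = 0.0376) higher in MOF cKO. Abca12 passed the filter on low counts through its MOF cKO values alone, so its call is a description. Tgm1 and Tgm3 reached the level of that filter in both MOF cKO sums but, of the controls, only in control 2. Fabp5 (2.29, adjusted p = 0.0515) and Dgat2 (2.47, adjusted p = 0.0543) missed the threshold. Abca12 was at 106 and 34.3 CPM against 15.7 and 4.63, from 20 and 10 against 6 and 3 UMIs. Of the 20 Abca12 UMIs of MOF cKO 1, 16 came from 1 cell, and all 10 of MOF cKO 2 from 5 cells, those with at least 0.5% mitochondrial UMIs. Without collagen-holding cells Abca12 was at 0 in both MOF cKO suprabasal sums and at 10.1 and 7.00 in the controls. A single UMI of either MOF cKO sum is worth more than these control values. Nothing is therefore read from these values of 0. In the fit of cells under 20 Lor UMIs, Alox12b and Aloxe3 did not pass the filter on low counts. Alox12b was at 180 and 27.4 in MOF cKO, 34 and 8 UMIs, and at 5.24 and 15.4 in the controls, 2 and 10 UMIs. Here both MOF cKO values lay above both control values, whereas over all suprabasal cells the groups overlapped. Aloxe3 was at 5.30 and 3.43 in MOF cKO, 1 UMI in each, and at 0 and 7.72 in the controls, 0 and 5 UMIs. Its groups thus overlapped in these cells.

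**Figure D5:**
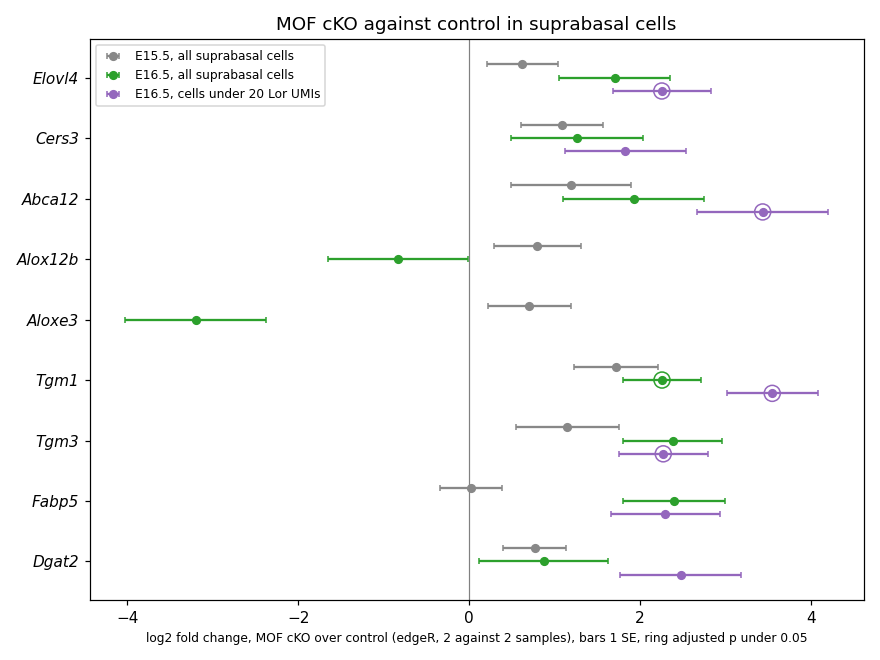
Log2 fold change of MOF cKO over control in suprabasal cells (horizontal axis) for the 9 genes, at E15.5 (grey), at E16.5 (green) and at E16.5 in cells with under 20 Lor UMIs (purple, a limit that removed 7 and 16 control but 1 and 0 MOF cKO cells), with 2 samples against 2, bars of 1 SE and rings where the edgeR adjusted p was under 0.05. Tgm1 is ringed in both E16.5 fits, and Aloxe3 at -3.20 and Alox12b at -0.83 are the members left of 0.

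Tgm1 was higher in cells with under 0.5% mitochondrial UMIs in both E16.5 controls. There it was at 202 and 137 CPM in such suprabasal cells and at 43.0 and 38.4 in the rest. Among such cells alone, Tgm1 was at 338 and 294 in MOF cKO, a difference of 1.03 ± 0.49 that did not pass (edgeR adjusted p = 0.218). Fabp5 did pass there (2.22 ± 0.53, edgeR adjusted p = 0.0145, with 14.3% of 1179 genes called), at 28311 and 46597 against 6496 and 10516. Without such cells, no member passed, and Tgm1 was at 188 and 119 in the remaining MOF cKO cells, 1 and 5 cells, against 43.0 and 38.4.

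In E16.5 basal cells 4 members, Fabp5, Cers3, Tgm1 and Tgm3, passed the filter on low counts, and none passed the test, in which edgeR called 0.243% of 9454 genes. Both MOF cKO samples lay above both controls for these 4 and for 10.6% of the genes tested, but Tgm1 and Tgm3 passed the filter through the MOF cKO sums alone, so nothing is read from the count. Tgm1 was at 63.7 and 11.3 CPM in MOF cKO and at 0.596 and 1.18 in the controls, from 23 and 5 against 2 and 8 UMIs (5.68 ± 0.94, edgeR adjusted p = 0.0881). Tgm3 was at 24.9 and 9.02 against 0.298 and 0.295, from 9 and 4 against 1 and 2 UMIs (6.08 ± 0.90, edgeR adjusted p = 0.0778). Fabp5 was at 8070 and 2927 against 903 and 1400 (2.75 ± 0.62, edgeR adjusted p = 0.126) and Cers3 at 33.3 and 22.6 against 11.02 and 5.31 (2.33 ± 0.51, edgeR adjusted p = 0.120). Elovl4 was at 61.0 and 4.51 against 0.894 and 1.18, with 22 and 2 UMIs in MOF cKO. In each of these genes MOF cKO 1 was the higher. Dgat2 was at 38.8 and 0 against 3.28 and 2.51, and Abca12 at 16.6 and 0 against 0.894 and 0.295. Alox12b was at 2.77 and 0 against 2.68 and 3.98. The values of 0 in MOF cKO 2 are not read as lower than control. In that sum 2 UMIs make 4.51 CPM, above each of these control values. Aloxe3 had 2 and 1 UMIs in MOF cKO. In dermal cells of the same libraries Tgm1 was at 4.82 and 2.93 CPM in MOF cKO and at 0.931 and 0.393 in the controls, and its part in the basal values was not tested.

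These basal values changed their side of the threshold with the processing. The counts of members called are descriptions, since Tgm1 and Tgm3 could be tested through their MOF cKO values alone. DESeq2 called all 4 tested members and 3.16% of all genes tested. A gate on the share of UMIs called 6 members (Fabp5, Elovl4, Cers3, Tgm1, Tgm3 and Dgat2) and 9.01% of genes, and a gate of 20 UMIs called 3 and 5.62%. The joint fit of both stages called 2 members and 1.26% of genes, and no filter on low counts called 7 and 5.95%. Without control 2, Fabp5, Elovl4 and Tgm1 were called, with 7.13% of genes. Without the collagen-holding cells, which were 57.1% and 72.7% of the MOF cKO and 50.2% and 19.6% of the control basal cells, Fabp5 and Cers3 alone were tested (2.24 and 2.54, edgeR adjusted p = 0.328 for both). Fabp5 was then at 8723 and 851 CPM in MOF cKO and at 1203 and 1401 in the controls, so that MOF cKO 2 lay below both controls. Cers3 was at 68.3 and 20.3 against 21.3 and 5.05, from 7 and 1 UMIs in MOF cKO. Cells under 0.5% mitochondrial UMIs were 28.6% and 22.7% of these MOF cKO cells and 2.51% and 1.08% of the control cells. Without them Fabp5 (1.23, edgeR adjusted p = 0.189) and Cers3 (2.39, edgeR adjusted p = 0.121) alone were tested, and neither passed.

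In the test of the MOF cKO effect between layers at E16.5, 1 member was called. The effect on Elovl4 was lower in suprabasal than in basal cells by 3.48 ± 0.64 on the log2 scale (edgeR adjusted p = 0.0413), in a fit that called 0.563% of 6038 genes. It rests on 22 and 2 Elovl4 UMIs in MOF cKO basal cells. The control basal sums held 3 and 8 UMIs, at levels below the dermal ones. The call was lost without MOF cKO 1 (-1.90, edgeR adjusted p = 0.645), without collagen-holding cells (-4.88, edgeR adjusted p = 0.0945), where MOF cKO 2 had 0 UMIs in basal cells, and with library size alone (-3.53, edgeR adjusted p = 0.0770). Tgm1 had a difference of -3.20 (edgeR adjusted p = 0.0661) and Tgm3 of -3.55 (edgeR adjusted p = 0.152). Between E16.5 and E15.5 the MOF cKO effect was called different for no member. There edgeR called 0.0152% of 13189 genes in basal cells and 0.0401% of 9968 genes in suprabasal cells. At an unadjusted p under 0.05 stood 1520 genes (6 members) and 1265 genes (2 members). On simulated counts this test found 0% of 2-fold changes in either layer. It found 4% of 4-fold changes in basal and 5% in suprabasal cells, so the lack of calls does not show a lack of change. In suprabasal cells the stage difference of Aloxe3 was -3.96 (edgeR adjusted p = 0.230).

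Of the other pathway lists, few genes passed between MOF cKO and control. At E15.5 none did in either layer. In E16.5 suprabasal cells the lipid droplet coat gene Plin2 rose (4.42, edgeR adjusted p = 0.0314), 1 of 6 tested genes of fatty acid and triglyceride synthesis. None of 15 ceramide, 16 cholesterol, 4 other lipoxygenase and fatty acid binding, 9 lamellar granule or 14 regulator genes tested did. Of the 15 ceramide genes 7 had an unadjusted p under 0.05, as had 1103 of all 4266 genes tested, and their median was 0.77. Of 17 envelope proteins tested, 3 were higher and 5 lower, with Lce1m (-13.85) lower and Sprr1a (11.31) and Sprr2h (10.54) higher. In E16.5 basal cells involucrin (Ivl) alone rose (6.12, edgeR adjusted p = 0.0466), 1 of 12 envelope proteins tested. In the test between layers, the effect was lower in suprabasal cells for Sult2b1 (-3.74), Ivl (-6.58) and Lor (-4.93) and higher for Sprr1a (8.93). In the test between stages, it was lower at E16.5 for Lor in suprabasal cells (-8.51, edgeR adjusted p = 0.0378).

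The suprabasal share of gated cells was 5.62% and 12.3% in E15.5 controls and 17.3% and 12.8% in MOF cKO, and 11.5% and 12.5% in E16.5 controls and 30% and 37.1% in MOF cKO. The differences of 6.12 and 21.6 percentage points gave p = 0.333 each by exact two-sided permutation of 6 arrangements, the smallest it allows. Over both stages p was 0.0556 by exact permutation of 36 arrangements, also the smallest.

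E17.5 had a single library for each genotype. No test was made, and intervals are exact 95% Poisson intervals that cover counting error only. A gene was counted as changed at 1.5-fold or more with a pseudocount of 1 and at least 20 UMIs in either library. In suprabasal cells 4 of the 7 members with enough UMIs were higher in QPC cKO, as were 4% of 9967 genes, and none was lower, against 10.7% of genes. Dgat2 was at 35.0 CPM (27.4 to 44.0) in QPC cKO and 14.0 (10.9 to 17.7) in control, a ratio of 2.39. Abca12 was at 20.6 (14.9 to 27.7) and 8.83 (6.41 to 11.9), a ratio of 2.20. Tgm1 was at 14.4 (9.69 to 20.5) and 6.22 (4.23 to 8.83), a ratio of 2.13, and Tgm3 at 35.0 (27.4 to 44.0) and 21.9 (18.0 to 26.4), a ratio of 1.57. The intervals of these 4 genes did not overlap. Elovl4 was at 222 and 162, Cers3 at 28.7 and 23.7 and Fabp5 at 5494 and 5406, all under 1.5-fold. Alox12b and Aloxe3 had 4 to 7 UMIs in each library.

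In E17.5 basal cells Elovl4 (5.73 against 3.49 CPM), Fabp5 (487 against 581), Dgat2 (2.15 against 2.22) and Aloxe3 (0.346 against 0.347) stayed under 1.5-fold, and Alox12b and Tgm3 had at most 8 UMIs. Abca12 (3.0003 against 0.423 CPM, ratio 2.81) and Cers3 (14.4 against 8.22, ratio 1.67) were higher in QPC cKO, 2 of 7 members against 5.63% of 15412 genes. Tgm1 was lower (0.731 against 2.02, ratio of control to QPC cKO 1.75), 1 of 7 against 17.7% of genes. Dermal fibroblast markers summed to 30894 CPM in the control basal sum and to 5402 in QPC cKO. Without collagen-holding cells, 710 control and 827 QPC cKO cells remained. Cers3 was then at 15.6 in QPC cKO and 16.3 in control, and Elovl4 (ratio 1.80) and Dgat2 (ratio 2.04) passed 1.5-fold. Abca12 was higher there too (ratio 2.26) and Tgm1 lower (1.74). Dgat2 and Abca12 reached the minimum of UMIs there through QPC cKO alone, and Tgm1 through the control alone. These passes are therefore descriptions. Control Tgm1, at 1.53 CPM, lay within the range of dermal levels of the controls. In suprabasal cells without collagen-holding cells, 78 control and 61 QPC cKO cells remained. There Dgat2 (2.86), Tgm1 (2.49), Abca12 (2.24) and Elovl4 (1.65) passed and Tgm3 (1.48) did not. Over all genes 507 of 7941 were higher and 812 lower. Tgm1 (14.4 CPM in QPC cKO and 5.17 in control) and Abca12 (21.9 and 9.20) reached the minimum of UMIs through QPC cKO alone. The passes of Tgm1 and Abca12 are therefore descriptions. Tgm3 did not pass without cells of low mitochondrial share either (1.47). With no upper limit on genes, Dgat2 and Abca12 alone passed in suprabasal cells, where 391 of 12185 genes were higher and 1015 lower, and Abca12 alone in basal cells, where 561 of 16306 were higher and 2308 lower. With the gate on the share of UMIs, Cers3 (17.4 CPM in control and 17.3 in QPC cKO) and Tgm1 (15 and 18 UMIs) no longer passed in basal cells, and Elovl4, Dgat2 and Abca12 were higher, as were 463 of 13424 genes. Of 24 ceramide genes with enough UMIs in suprabasal cells, 3 were higher and 2 lower. Of 21 cholesterol genes 0 were higher and 4 lower, and of 16 fatty acid and triglyceride genes 1 and 4. Of 11 lamellar granule genes 2 were higher and 0 lower, of 10 envelope proteins 2 and 1, and of 16 regulators 1 and 1. Over all genes in suprabasal cells 4% were higher and 10.7% lower.

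The genes most like each member were taken over the 20 sums (10 libraries, basal and suprabasal) by Pearson's r of log2(CPM + 1), among 7751 genes with a mean of at least 10. The sums share libraries, and r mainly follows the contrast between layers, so it is a description across sums. Elovl4 was most like Tmprss4 (0.98) and Grhl1 (0.97), Cers3 like Tpd52 (0.91) and Map3k6 (0.89), and Abca12 like Esrp2 (0.95) and Llgl2 (0.93). Alox12b was most like Wfdc5 (0.97) and Sdr9c7 (0.96), and Aloxe3 was below the level minimum. Tgm1 and Tgm3 both had Rbp2 among their 2 most like genes (0.97 each), with Tprg (0.97) for Tgm1 and Abhd5 (0.98) for Tgm3. Dgat2 was most like Ndrg2 (0.97) and Ly6g6c (0.96), and Fabp5 like Fam162a (0.96) and 2610528A11Rik (0.93).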

How the data were processed

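Per the deposited files, the values are UMI counts per gene and cell barcode, not normalised. The authors made them with Cell Ranger on mm10, and the submitters' processing notes name versions 1.3.1 and 6.1.2 for E16.5 and E17.5 and 6.1.2 for E15.5. Libraries used the 3' v2 (E16.5), v3 (E17.5) and v3.1 (E15.5) chemistries. Limits on cells follow the study's methods. No doublet caller was run. Counts were summed per library and class and tested by edgeR 4.0.16 (filterByExpr, TMM, quasi-likelihood) in R 4.3.3, separately per stage, with adjusted p under 0.05. Control comparisons of classes had the library as a block. The SE given with edgeR fold changes is the absolute log2 fold change over the square root of the test's F statistic. It is approximate, above all at low counts. The paper reports pairs of samples and littermate controls, and its text does not say which libraries form a pair. Nothing states that replicate libraries came from separate litters, so p-values measure only the spread between these samples. The code was tested on simulated data. There the fits of MOF cKO against control found 23% (E15.5 basal), 17% (E15.5 suprabasal), 0% (E16.5 basal) and 5% (E16.5 suprabasal) of 2-fold changes. Of 4-fold changes they found 62%, 79%, 16% and 50% in the same order. False calls there were 10 of 95, 22 of 118, 3 of 19 and 5 of 60 calls. In the test between layers at E16.5 they were 3 of 22, so calls near the threshold are to be read with care. Alternatives were DESeq2 1.42.0, library-size scaling, no filter, other gates and limits and leaving out libraries. Members and lists were chosen with earlier results of these data known. The 9 members are described, with at most 3 genes per list (largest change among those called). The E17.5 rule was a fold of 1.5 with a pseudocount of 1. A promoter motif match is a letter match only. Levels are counts of 3' ends and do not depend on gene length. A result on 1 gene of the lists is not reported here.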

Additional observations from a re-analysis of the deposited data

Results flagged for a closer look

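Elovl4, the elongase of very long chain fatty acids, was singled out because the MOF cKO effect at E16.5 differed between suprabasal and basal cells. The difference was -3.48 on the log2 scale (SE 0.64, edgeR adjusted p = 0.0413). In basal cells Elovl4 was at 61.0 and 4.51 CPM, counts per 1000000 UMIs, in MOF cKO and at 0.894 and 1.18 in control, and in suprabasal cells at 711 and 267 against 139 and 293. Both MOF cKO basal values lay above both control values, from 22 and 2 UMIs. Without collagen-holding cells the basal values were 87.8 and 0 in MOF cKO and 0.819 and 0.659 in control. A single UMI of that MOF cKO 2 sum is worth more than 4.51 CPM, so its 0 does not show a fall. The call was lost in that setting, although the difference was larger in size (-4.88, edgeR adjusted p = 0.0945). It was also lost without MOF cKO 1 (-1.90, edgeR adjusted p = 0.645).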

How the results depend on the processing

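The count of members called was 9 in suprabasal against basal control cells and 5 in loricrin-high against loricrin-low cells under every alternative that kept all libraries, and 9 and 4 to 6 with libraries left out. At E15.5, 0 members were called in basal cells, and 0 to 2 with libraries left out. In E15.5 suprabasal cells 0 were called, 1 by DESeq2, 4 with no filter on low counts and 0 to 4 with libraries left out. In E16.5 basal cells 0 were called, 2 with 1 fit of both stages, 3 with a gate of 20 UMIs, 4 by DESeq2, 6 with the gate on the share of UMIs, 7 with no filter and 0 to 3 with libraries left out. In E16.5 suprabasal cells 1 was called, 2 with library size alone, a mitochondrial limit of 5% or no upper limit on genes, 3 by DESeq2, 4 under 20 Lor UMIs, 5 with no filter or without collagen-holding cells, 0 with the gate on the share of UMIs or without cells of low mitochondrial share, and 0 to 3 with libraries left out. In the test of the MOF cKO effect between layers, 0 members were called at E15.5 and 0 to 1 with libraries left out (Fabp5 without control 3 or without MOF cKO 6). At E16.5 it called 1, 2 by DESeq2, 0 with library size alone or without collagen-holding cells, and 0 to 4 with libraries left out, and over all genes 34, 62, 23, 13 and 9 to 134. These alternatives were chosen after seeing the data. With the replicate block at E16.5, 0 members were called in basal and 0 in suprabasal cells, where Tgm1 was at 2.19 (adjusted p = 0.0862). Same-numbered samples did not deviate together (correlation -0.08 and -0.04), but so few cells cannot exclude pairing. Over all genes the block called 52 in basal and 88 in suprabasal cells, against 23 and 172 without it.

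Members past 1.5-fold at E17.5 numbered 3 in basal cells, 4 with a pseudocount of 0.1 or without collagen-holding cells, 3 but without Tgm1 and Cers3 with the gate on the share of UMIs, 1 with no upper limit on genes, and 4 in suprabasal cells, 2 with that setting or with a mitochondrial limit of 5%, and 3 without cells of low mitochondrial share. The E16.5 difference in suprabasal share was 21.6 points, 27.4 with a mitochondrial limit of 5% and 29.0 without collagen-holding cells. All genes called in E16.5 basal cells numbered 299 by DESeq2, 991 with no filter, 765 with the gate on the share of UMIs, 166 in 1 fit, 448 with a gate of 20 UMIs, 0 without collagen-holding cells or with no upper limit on genes, 12 with a mitochondrial limit of 5%, 15 without cells of low mitochondrial share and 0 to 434 with libraries left out. In E16.5 suprabasal cells they numbered 305 with library size alone, 636 with no filter, 364 without collagen-holding cells, 401 under 20 Lor UMIs, 110 with the gate on the share of UMIs or a gate of 50 UMIs, 96 without cells of low mitochondrial share and 30 to 247 with libraries left out. At E15.5 they numbered 0 to 7518 in basal and 0 to 1762 in suprabasal cells with libraries left out, and 525 in suprabasal cells with no filter. With libraries left out they numbered 2307 to 3831 between suprabasal and basal control cells and 305 to 898 between loricrin-high and loricrin-low cells, against 3758 and 856. The split of E16.5 suprabasal calls moved from 143 higher and 29 lower to 126 and 179 with library size alone, and that of suprabasal against basal control cells from 1900 and 1858 to 1419 and 2446. For loricrin-high cells it moved from 582 and 274 to 513 and 602.

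Of 600 fold changes of single members under alternatives, those between classes or genotypes and that of Elovl4 between layers, 20 turned their sign, none of them past the threshold. Of 123 differences of members in the test between layers, 19 turned, none past the threshold, among them at E16.5 Fabp5 without collagen-holding cells (1.12) and Abca12 (4.16) and Dgat2 (5.07) without MOF cKO 1. At E15.5 in basal cells these were Cers3 (-0.10 with library size alone, -0.19 without hair follicle marker cells), Abca12 (-0.032 with no upper limit on genes), Tgm1 (-0.32 without hair follicle marker cells) and Dgat2 (-0.018 with library size alone, -0.12 without collagen-holding cells, -0.98 without hair follicle marker cells). With 1 library left out Fabp5 ranged from -1.24 to 0.029, Cers3 from -0.23 to 0.33 and Dgat2 from -0.20 to 0.45 there. In E15.5 suprabasal cells Fabp5 turned (-0.10 with library size alone, -0.017 with no filter, -0.046 without cells of low mitochondrial share, -0.081 with no upper limit on genes) and ranged from -0.32 to 0.28 with 1 library left out. In E16.5 suprabasal cells Alox12b turned without collagen-holding cells (0.89) and Dgat2 without cells of low mitochondrial share (-0.70). With 1 library left out they ranged from -2.88 to 0.14 and from -0.40 to 1.97. The cause was not tested. Removing hair follicle marker cells could not be run in E16.5 basal cells, where 0 and 2 MOF cKO cells were left. The settings on low mitochondrial share and the upper gene limit were chosen after seeing the data. Depth limits the E16.5 MOF cKO sums, where a single UMI is 2.77 and 2.26 CPM in basal and 5.19 and 3.43 CPM in suprabasal cells.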
